A study of Oryctolagus cuniculus with 4 samples.

Results

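DPY30 and 7 genes that act with it on lysine 4 of histone H3 were examined in rabbit blastocysts formed with and without a father. The genes were DPY30, WDR5, ASH2L, RBBP5, CXXC1, SETD1A, KDM5B and KDM1A, and their probes were found by gene name, accession or description on an Agilent rabbit oligonucleotide array. Of these 8 genes, 5 had a named probe, with 10 probes among the 43603 of the array: 5 for DPY30, 2 for RBBP5 and 1 each for ASH2L, KDM5B and KDM1A. WDR5, CXXC1 and SETD1A were not analysed here. The set was chosen by the array ratios themselves, since DPY30 was taken up for its lower ratio in these parthenotes, so its own values are given as a description without a test, and the tests concern its partners.

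Embryos of New Zealand White rabbits aged 6 days were compared in pools on 4 arrays with 2 colours. Parthenotes came from oocytes activated by electrical pulses followed by cycloheximide and 6-DMAP, and were transferred to the oviducts of recipient does, so that both groups developed in vivo. The fertilised embryos came from inseminated does and were not treated. Each array received a parthenote pool in Cy3 and a fertilised pool in Cy5 with no dye swap, so dye and group cannot be told apart. Labelling started from 150 ng of total RNA per pool, and the methods describe the pools as independent. Of 43803 spots that were not controls, the software marked between 25805 and 26339 per array as well above background for the parthenote pool and between 27508 and 27835 for the fertilised pool. POU5F1 of the epiblast and GATA3, TFAP2C and KRT8 of the trophectoderm were clearly detected in both pools of every array, as blastocysts would have them, while CDX2, NANOG and SOX2 were not analysed here.

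Methylation of histone H3 at lysine 4 marks the promoters and enhancers of genes that are active or poised. It is written by the SET1 and MLL enzymes, which work poorly alone and need a shared core made of WDR5, RBBP5, ASH2L and DPY30. DPY30 is a small protein that binds ASH2L as a dimer and raises the activity of the complex. SETD1A is a catalytic subunit and CXXC1 brings its complex to unmethylated CpG DNA. KDM5B and KDM1A act the other way and remove methyl groups from the same lysine. In the early embryo this mark is rebuilt on both parental genomes, and KDM5 enzymes trim it in cleavage stages.

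The 5 probes of DPY30 are shown first because they decide how much evidence from these arrays the fall of this gene rests on. Their sequences, written 5′ to 3′ with the shared bases in capitals, were as follows.
A_04_P039781: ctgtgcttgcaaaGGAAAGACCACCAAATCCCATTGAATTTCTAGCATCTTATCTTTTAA
A_04_P039780: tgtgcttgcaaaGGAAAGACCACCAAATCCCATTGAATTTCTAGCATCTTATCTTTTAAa
A_04_P039779: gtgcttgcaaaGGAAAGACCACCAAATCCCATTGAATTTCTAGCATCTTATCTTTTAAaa
A_04_P039778: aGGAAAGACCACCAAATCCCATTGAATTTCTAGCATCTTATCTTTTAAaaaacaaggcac
A_04_P039777: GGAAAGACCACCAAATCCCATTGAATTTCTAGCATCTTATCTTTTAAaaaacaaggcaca
All 5 lie in a window of 73 bases, from position 244 to 316 of the array's transcript, and share a core of 47 bases. They are therefore close to a single measurement of a short stretch of the transcript, and not 5 independent ones. No other probe of the array shared a run of 25 bases with them, and G and C made up between 35.0% and 36.7% of their bases. The array file places A_04_P039779 at chr2:154273728-154277397 on the plus strand, without naming the genome build. Its 60 bases are thus spread over 3670 bases of the chromosome, so the probe crosses at least 1 exon junction. Apart from the arrays, the paper measured DPY30 by RT-qPCR and reports it lower in parthenotes. Those pools were the array samples plus additional ones.

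Both probes of RBBP5 are shown because they gave different values. They lie next to each other in the transcript without sharing a base, at chr16:67043535-67043594 and chr16:67043595-67043654 on the plus strand in the array file.
A_04_P084823: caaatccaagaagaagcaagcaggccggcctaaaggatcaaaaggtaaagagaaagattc
A_04_P084822: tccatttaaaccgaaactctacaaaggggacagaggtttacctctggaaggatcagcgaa
The single probes of the other partners were A_04_P052807 for ASH2L at chr16:46236785-46236841 on the minus strand, A_04_P082417 for KDM5B at chr16:69010193-69010252 on the plus strand and A_04_P080447 for KDM1A at chr13:130135951-130136010 on the minus strand.

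DPY30 was lower in the parthenote pool than in the fertilised pool on all 4 arrays and by all 5 probes. The brightest probe, A_04_P039779, had processed intensities of 3321, 2402, 2476 and 2353 in the parthenote pools of arrays 1 to 4. In the fertilised pools of the same arrays the intensities were 8491, 8706, 8340 and 7641. The highest parthenote pool, that of array 1, lay far under the lowest fertilised pool, so the groups did not overlap. The log2 ratios of parthenote over fertilised were -1.35, -1.86, -1.75 and -1.70, with a mean of -1.67 ± 0.22 (SD, n = 4 arrays), which is 3.17-fold lower. Array 1 had the smallest difference with each of the probes, and its parthenote pool was the brightest. In pooled embryos, fewer cells that express a gene and less RNA per cell cannot be told apart.

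The other probes of DPY30 differed little from the brightest. Mean log2 ratios ran from -1.75 for A_04_P039777 to -1.64 for A_04_P039781, which is between 3.12-fold and 3.36-fold lower. All 20 values of 5 probes on 4 arrays lay between -1.97 and -1.32, and the largest difference between probes on an array was 0.152. The spread between arrays thus exceeded the spread between probes. Among the 6958 named genes that the brightest probe detected above background in both pools of every array, 8 (0.115%) had a lower mean log2 ratio than DPY30, and 69 (0.992%) were more than 2-fold lower. A place near the low end was set by the choice of DPY30 for its low ratio, and is a description only.

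**Figure D1:**
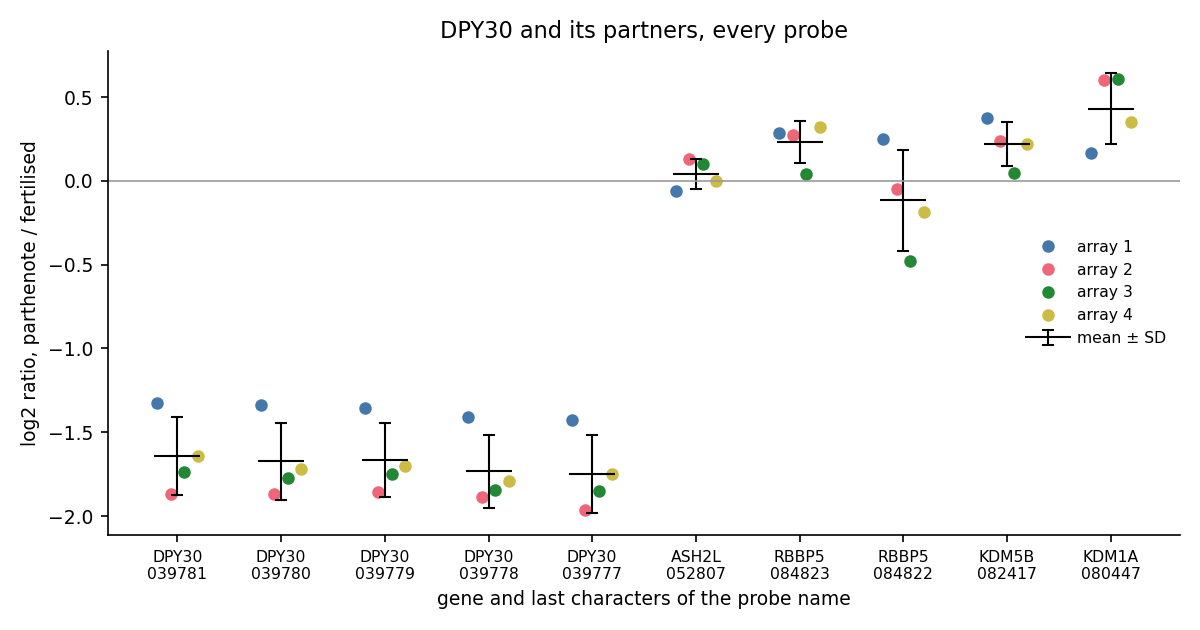
Log2 ratio of parthenote over fertilised (vertical axis) for each probe of DPY30 and its partners (horizontal axis), with 1 point per array and the mean ± SD of 4 arrays as bars. The DPY30 values lie between -1.97 and -1.32, while the lowest value of any partner probe is -0.48, on array 3 for the dim second RBBP5 probe.

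The question was whether the partners of DPY30 fell with it, and in these arrays none of the 4 measured partners was called lower. Each partner was read by its brightest probe, and limma tested whether its mean log2 ratio differed from 0, adjusted over all 43595 probes tested. At an adjusted p under 0.05, 0 of 4 were lower and 0 were higher, where 12.3% of the 10320 named genes were called lower and 11.6% higher. At an unadjusted p under 0.05 there were 3 of 4, all with a mean above 0, where 41.8% of the named genes passed. The methods' t-test with the same adjustment also called 0 of 4. The calls towards higher levels in parthenotes depended on the processing, and 1 or 2 of the 4 passed under some alternatives, while none of these called a partner lower.

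ASH2L, the subunit that DPY30 binds directly, did not follow it. Its probe had intensities of 1181, 1339, 1285 and 1093 in the parthenote pools and of 1232, 1222, 1198 and 1094 in the fertilised pools of arrays 1 to 4. The groups overlapped, and neither was the brighter on every array. The mean log2 ratio was 0.04 ± 0.09 (SD, n = 4 arrays; limma adjusted p = 0.541), with a 95% confidence interval from -0.08 to 0.17. DPY30 minus ASH2L was -1.71 ± 0.30 on the same scale, with single arrays between -1.99 and -1.29.

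RBBP5, the subunit that contacts both WDR5 and ASH2L, was dim on this array. The brighter probe, A_04_P084823, had intensities of 51.8, 43.4, 33.9 and 42.4 in the parthenote pools and of 42.5, 35.9, 32.9 and 33.9 in the fertilised pools. The parthenote pool was the brighter on each array, but the groups overlapped. Its mean log2 ratio was 0.23 ± 0.13 (SD, n = 4 arrays; limma adjusted p = 0.0811), with a 95% confidence interval from 0.06 to 0.41. The adjacent probe A_04_P084822 gave -0.12 ± 0.30 (limma adjusted p = 0.636) and was well above background on 1 array in the parthenote channel, so the probes disagree in sign and neither was called. Without replicate 3 the mean of the brighter probe was 0.29 with an adjusted p of 0.0352 in limma, and with normexp and loess it was 0.10 with an adjusted p of 0.199. DPY30 minus RBBP5 was -1.90 ± 0.22 by the brighter probes.

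**Figure D2:**
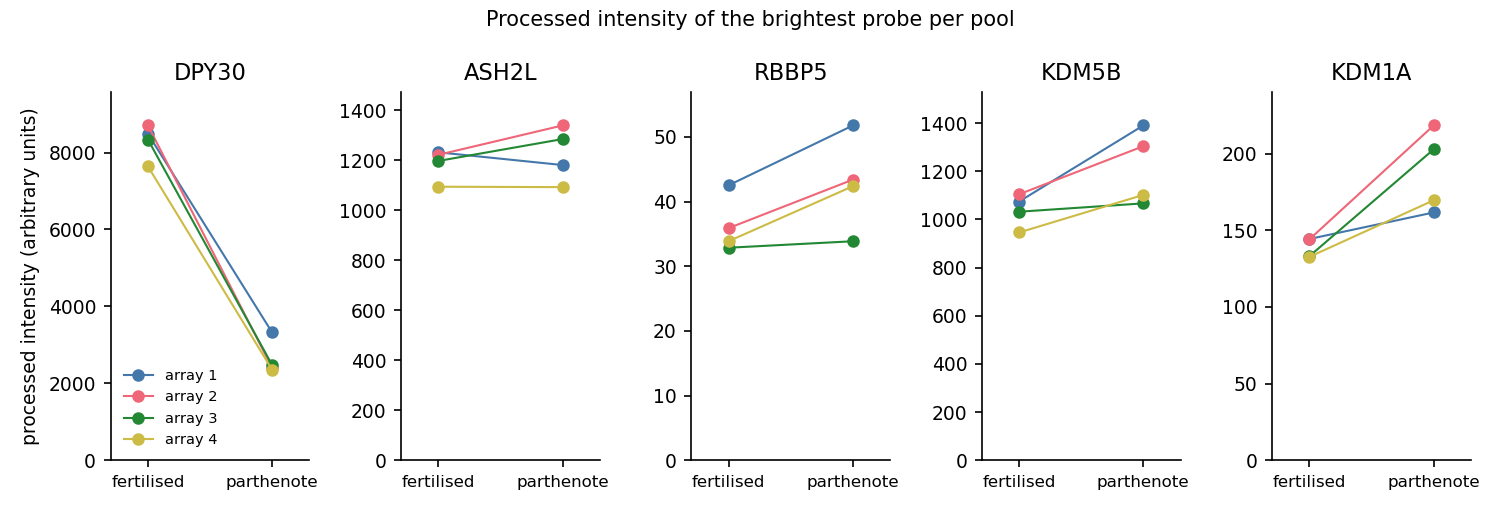
Processed intensity in arbitrary units (vertical axes, each from 0 on its own scale) of the brightest probe of each gene in the fertilised and the parthenote pool, with a line for each array. The DPY30 lines fall from between 7641 and 8706 to between 2353 and 3321, and those of the 4 partners run level or upwards, apart from a slight fall of ASH2L on array 1.

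Both demethylases of histone H3 lysine 4 had means above 0. KDM5B, which removes the higher methylation states, had intensities of 1390, 1304, 1066 and 1102 in the parthenote pools against 1074, 1104, 1032 and 945 in the fertilised pools. The parthenote pool was the brighter on every array, least so on array 3, and the groups overlapped. The mean log2 ratio was 0.22 ± 0.13 (SD, n = 4 arrays; limma adjusted p = 0.0976), with a 95% confidence interval from 0.04 to 0.40. DPY30 minus KDM5B was -1.89 ± 0.16, the narrowest spread among the partners.

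KDM1A, the demethylase of the CoREST complex, had the highest mean of the partners. Its probe had intensities of 162, 218, 203 and 170 in the parthenote pools and of 144, 144, 133 and 133 in the fertilised pools. Every parthenote pool was brighter than every fertilised pool, with the smallest difference on array 1. The log2 ratios were 0.16, 0.60, 0.61 and 0.35, with a mean of 0.43 ± 0.21 (SD, n = 4 arrays; limma adjusted p = 0.0666) and a 95% confidence interval from 0.14 to 0.72. Over the alternatives the mean lay between 0.22 and 0.52 and the adjusted p between 0.0152 and 0.198. DPY30 minus KDM1A was -2.10 ± 0.42.

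WDR5B, a paralogue of WDR5 made from a single exon, was looked at after the values were seen because WDR5 itself could not be read. Its brightest probe, A_04_P087194, had log2 ratios of 0.06, 0.06, -0.03 and -0.11 on arrays 1 to 4 and a limma adjusted p of 1. None of its 4 probes was called. WDR5B says nothing about the level of WDR5.

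The wider pathway was described with lists of other subunits, writers, erasers and readers of histone methylation. Of 95 listed genes, 59 had a named probe, and in the same limma fit 8 were lower, 4 were higher and 47 did not pass. The median log2 ratio of the 59 genes was -0.06, against 0 for all named genes, and 12 of 59 called stands beside 23.9% of all named genes. Of the 59 genes, 49 were above background in both pools of every array. None of these 49 was more than 2-fold lower, where 0.992% of all genes detected in this way were, and the lowest of them, NSD1, had a log2 ratio of -0.68. The calls were sensitive to single arrays, since 7 of 59 genes passed without replicate 1, 3 without replicate 2, 1 without replicate 3 and 0 without replicate 4.

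Among other subunits of the SET1 and MLL complexes, 2 of 11 measured genes fell and 0 rose, where 12.3% and 11.6% of all named genes did. WDR82, which ties the SET1 complexes to RNA polymerase II, had log2 ratios of -0.38, -0.19, -0.21 and -0.42, with a mean of -0.30 ± 0.12 (limma adjusted p = 0.0433). NCOA6, a subunit of the MLL3 and MLL4 complexes, had -0.58, -0.22, -0.37 and -0.32, with a mean of -0.37 ± 0.15 (limma adjusted p = 0.048). Both were lower on every array, by 1.23-fold and 1.29-fold. All 3 probes of WDR82 were called lower and 1 of 2 probes of NCOA6 was. Both calls were lost in the methods' t-test (adjusted p = 0.0776 for WDR82 and 0.0842 for NCOA6) and whenever a replicate was left out, as well as with trend and robust estimation (0.0527 and 0.0581), and that of WDR82 also with normexp and loess (0.054) and without pairing (0.0674). KMT2C, a catalytic subunit, had 0.15, and BOD1, HCFC1, HCFC2, PSIP1 and PAGR1 lay between -0.13 and 0.17 without passing. SETD1B and KMT2A were not well above background on any array. KDM6A, the demethylase of lysine 27 held in the MLL3 and MLL4 complexes, had 0.09 by its brightest probe and did not pass, although 2 of its probes were called higher.

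Over all 27 measured genes of the lists for histone H3 lysine 4 methylation, these subunits included, 5 were called lower and 1 higher, where 12.3% and 11.6% of all named genes were. SMYD2, a methyltransferase whose targets include proteins other than histones, fell, with a log2 ratio of -0.31 ± 0.09 (limma adjusted p = 0.0272). SMYD3, of the same family, rose by 0.26 ± 0.10 (limma adjusted p = 0.0438). These were the only measured genes of 4 listed. Each kept its direction on all 4 arrays, but both calls were lost in the methods' t-test (adjusted p = 0.0548 for SMYD2 and 0.0782 for SMYD3) and whenever a replicate was left out, and that of SMYD3 also with normexp and loess (0.0566) and with trend and robust estimation (0.0531).

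KDM5C was the 1 of 6 other demethylase and CoREST genes that was called, where 23.9% of all named genes were. This X-linked relative of KDM5B had intensities of 55.4, 44.2, 51.2 and 47.8 in the parthenote pools and of 81.3, 75.2, 79.9 and 75.9 in the fertilised pools. The groups did not overlap, and the mean log2 ratio was -0.66 ± 0.09 (limma adjusted p = 0.00937), or 1.58-fold lower. With normexp and loess, which change background correction and normalisation together, it was -0.22 (adjusted p = 0.0472), and the call was lost without replicate 3 (0.0507) and without replicate 4 (0.0645). Within the same family KDM5A had 0.01 and KDM5B had 0.22, neither called. KDM1B, the relative of KDM1A that acts in oocytes, had 0.23 and was not called. BPTF, a reader in the NURF remodelling complex, was the 1 of 8 readers called lower, where 12.3% of all named genes were, with -0.26 ± 0.06 (limma adjusted p = 0.0181), and its 4 probes above background ran from -0.26 to 0.06 with 2 of them called. The mean of all its probes was -0.14, and the call of BPTF was lost without pairing (adjusted p = 0.0853) and without replicate 1, 3 or 4 (between 0.0568 and 0.0823).

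**Figure D3:**
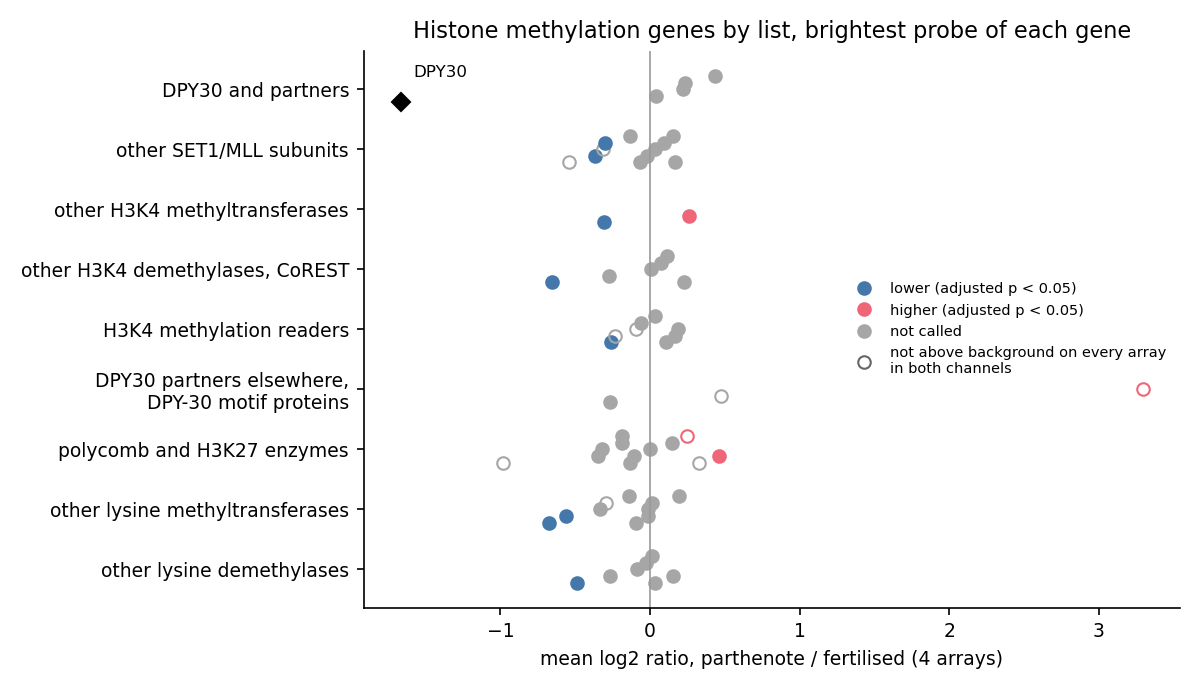
Mean log2 ratio of parthenote over fertilised on 4 arrays (horizontal axis) for the brightest probe of each gene, by gene list (rows), with blue points lower and red points higher at an adjusted p under 0.05 in limma, grey points not called and open points not above background on every array in both channels. DPY30, the black diamond at -1.67, stands left of all the other points, and the open point at 3.29 is AK7.

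The list of other DPY30 partners and of proteins with a DPY-30 motif held 3 measured genes, and 1 rose, where 11.6% of all named genes did. AK7, an adenylate kinase of motile cilia that carries the motif, had intensities of 151, 73.0, 166 and 110 in the parthenote pools. In the fertilised pools it lay between 8.81 and 15.7 and was well above background on 2 of 4 arrays. Its log2 ratio of 3.29 ± 0.75 (limma adjusted p = 0.0182) therefore rests partly on a channel at background, and was 1.15 after normexp and loess (adjusted p = 0.0371). The call of AK7 was lost without replicate 1, 3 or 4 (limma adjusted p between 0.0568 and 0.0970). DYDC1, which also carries the motif, had 0.48 and was mostly at background. AKAP8, an anchoring protein reported to bind DPY30, had -0.27, and neither was called.

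Enzymes of other histone lysines, which the wider pathway lists above include, were read beside those of lysine 4. Among 12 polycomb and lysine 27 genes, 2 rose and 0 fell by the brightest probe, where 11.6% and 12.3% of all named genes did. RBBP7, a histone chaperone in polycomb and deacetylase complexes, had a log2 ratio of 0.46 ± 0.09 (limma adjusted p = 0.0146), and both of its probes were called. The call of RBBP7 was lost without replicate 2, 3 or 4 (limma adjusted p between 0.0567 and 0.0815). PHF1 had 0.25 ± 0.10 (limma adjusted p = 0.0483) but was above background for the parthenote pool on 1 array and for the fertilised pool on 3, and had 0.06 with normexp and loess (adjusted p = 0.572). EZH2, the catalytic subunit, had -0.35 and did not pass by its brightest probe, although 1 of its 2 probes was called lower. AEBP2 and PCGF1, of the polycomb complexes, likewise had 1 probe each called lower, which was not the brightest.

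Of 10 other lysine methyltransferases, 2 fell by the brightest probe, where 12.3% of all named genes did. NSD1, which methylates lysine 36, had -0.68 ± 0.12 (limma adjusted p = 0.0138), and SETDB1, which methylates lysine 9, had -0.56 ± 0.17 (limma adjusted p = 0.0297). Both were lower on every array. The call of NSD1 was lost without replicate 2, 3 or 4 (limma adjusted p between 0.0541 and 0.0802). That of SETDB1 was lost in the methods' t-test (adjusted p = 0.0587) and without replicate 2, 3 or 4 (limma adjusted p between 0.0739 and 0.131). SETDB2, of the lysine 9 family, had -0.34 and did not pass by its brightest probe, although 2 of its 3 probes above background were called lower, down to -0.61. Of 7 other demethylases, KDM7A fell by 0.49 on the log2 scale (SD 0.17, limma adjusted p = 0.0346), and the others lay between -0.27 and 0.16 without passing. The call of KDM7A was lost with normexp and loess (-0.17, adjusted p = 0.0929), in the methods' t-test (0.0658) and whenever a replicate was left out (between 0.0691 and 0.134).

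The genes next to DPY30 on the chromosome were read to see whether its low ratio extended to them. The order was taken from the rabbit annotation mOryCun1.1, with 3 protein-coding genes on each side. SPAST, the nearest measured neighbour, encodes the microtubule-severing protein spastin and had log2 ratios of -0.09, -0.24, -0.31 and -0.26 with a mean of -0.23 ± 0.10 (limma adjusted p = 0.0522). Its other probes had means of -0.35 (A_04_P057238, called lower with a limma adjusted p of 0.0246) and -0.33 (A_04_P057239, not called). SLC30A6, a zinc transporter 1 place further, had -0.25, -0.33, -0.44 and -0.26 with a mean of -0.32 ± 0.09 (limma adjusted p = 0.0237), and all 3 of its probes were called lower. Both had the same sign as DPY30 on every array and a far smaller size.

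On the other side, SRD5A2, a steroid reductase, was dim and had a mean of -0.61 ± 0.21 (limma adjusted p = 0.0348), and its 10 probes ran from -0.89 to 0.30. XDH, xanthine dehydrogenase, had 1.85 ± 1.25 (limma adjusted p = 0.12) and was above background for the fertilised pool on 1 array. Its dimmer probe A_04_P001056 was called higher, with a mean of 2.32 (limma adjusted p = 0.0408). That probe was above background for the parthenote pool on 2 arrays and for the fertilised pool on 0. NLRC4 and MEMO1 were not analysed here. No brightest probe of a neighbour came within the range of the DPY30 values on any array, although a dimmer probe of SRD5A2, A_04_P019076, had -1.74 on array 1.

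**Figure D4:**
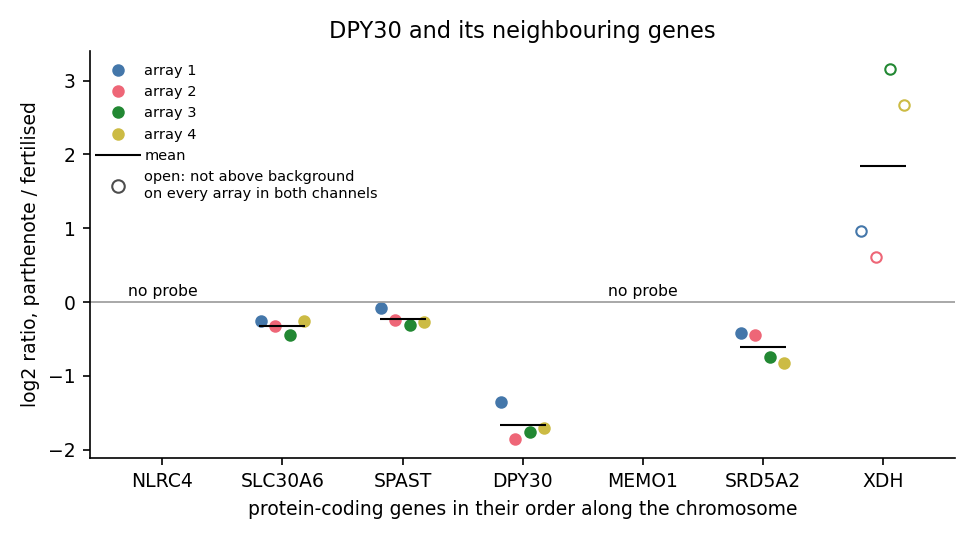
Log2 ratio of parthenote over fertilised (vertical axis) on each array for DPY30 and the 3 protein-coding genes on each side in their chromosomal order (horizontal axis), with lines for means and open points for a gene not above background on every array in both channels. The DPY30 mean of -1.67 lies under those of SLC30A6 (-0.32), SPAST (-0.23) and SRD5A2 (-0.61), and XDH lies above 0.

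The genes with the ratios most like those of DPY30 were found by the Euclidean distance over the 4 log2 ratios, among named genes above background in both pools of every array. ACKR3, a receptor that scavenges the chemokine CXCL12, was the closest at a distance of 0.19, with -1.28, -1.77, -1.65 and -1.82. JAK2, a cytokine receptor kinase, and NOS2, the inducible nitric oxide synthase, followed, both at 0.47. ECHDC2 lay at 0.51 and OOEP, a protein of the maternal subcortical complex of oocytes, at 0.52. Their means lay between -1.70 for OOEP and -1.44 for JAK2. Nearness here describes 4 arrays only.

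Markers of other tissues that the pools could hold were read beside these values. Of 6 measured markers of motile ciliated cells, 3 were called higher in parthenotes, where 11.6% of all named genes were, and their summed intensity was 597, 302, 750 and 506 in the parthenote pools against 184, 115, 112 and 119 in the fertilised pools. FOXJ1, the defining factor of these cells, was not well above background on any array. Both measured markers of the secretory epithelium of oviduct and uterus, OVGP1 and SCGB1A1, were called higher, with sums of 6972, 5802, 25583 and 13269 against 964, 673, 2231 and 930. OVGP1 alone ran from 3014 to 19178 in the parthenote pools and from 238 to 1273 in the fertilised pools. Of 3 measured leukocyte markers 1 was called higher, CD14 with a log2 ratio of 0.92, and of 5 stromal markers 0 were called. Summed intensity of the leukocyte markers was between 220 and 279 in the parthenote pools and between 119 and 137 in the fertilised pools. CD14 alone made up 205 to 246 and 106 to 125 of these sums. Summed intensity of the stromal markers was between 207 and 310 against between 168 and 188. COL1A2 alone made up 140 to 236 and 126 to 145 of the stromal sums. CD74 of leukocytes (1.12) and COL3A1 of stroma (1.83) were higher on every array without being called. PTPRC of leukocytes and COL1A1 and ACTA2 of stroma were not well above background on any array.

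Markers of the embryo's own lineages were read in the same way. KRT8 and POU5F1 were called higher, by 0.58 and 0.21 on the log2 scale. TFAP2C had log2 ratios of -0.75, -0.11, -0.14 and -0.23 and GATA3 a mean of 0.12, and neither was called. Summed intensity of the 3 measured trophectoderm markers, of which KRT8 alone made up 18902 to 27439 in the parthenote pools, was between 21057 and 29742 in the parthenote pools and between 17054 and 18863 in the fertilised pools. That of the 3 measured epiblast markers was between 11810 and 14632 against between 10359 and 11532, and POU5F1 alone made up 8729 to 9914 in the parthenote pools. The epiblast markers did not move alike. LIN28A was lower on every array, with a mean of -0.22, and DPPA5 had a mean of 0.31, and neither was called. The part of any of these markers in the values of DPY30 and its partners was not tested.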

How the data were processed

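RNA of 4 parthenote pools (Cy3) and 4 fertilised pools (Cy5) was hybridised to 4 arrays on 1 slide. The authors extracted the spots with Agilent Feature Extraction (10.10.1.1 per the submitters' processing notes) under default parameters. The deposited mean and local background intensity of each spot were not normalised, whereas the authors' processed intensity had its background subtracted and its dyes normalised. The deposited log10 ratio is processed Cy5 over Cy3, set to 0 where both channels lack a usable signal. The authors' value table holds the same log10 ratio with its sign turned, with a median of 0 in each column, and 0 of its columns lacked a sample.

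The log10 ratios were turned to log2 of parthenote over fertilised. Control spots and marked spots (between 26 and 48 per array) were left out, and spots of a probe were averaged. Tests ran in limma 3.58.1 under R 4.3.3, by lmFit followed by eBayes, for the 43595 probes that had a value on 3 or more arrays. They were two-sided, with Benjamini-Hochberg adjustment and a threshold of 0.05, and were tested on simulated data. Each ratio pairs the pools of an array. Deviations from the group mean of a pool and its partner on the same array correlated by 0.60, 0.63, 0.62 and 0.65. With other arrays the mean correlation was about -0.21. A negative value there follows from centring each channel on its own mean over the arrays, so it is not a separate observation. The precision of all values is limited by the number of arrays.

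Of 43603 probes, 23257 were given a single symbol, 13115 by RefSeq accession and 9238 by gene identifier, using the rabbit gene table of mOryCun1.1 for names and gene order only. 138 probes with several symbols were not named, and 20208 had no symbol. The brightest probe over both channels stood for its gene. Named genes were the 8 members, list genes past the threshold with 1 sign on all arrays, 3 neighbours on each side and the 5 nearest ratio patterns. Other genes were named to describe a list, and were chosen after their values were seen. The members and lists were chosen with earlier results of these data known. Tables and plots were made in Python 3.11.15 with pandas 2.3.3 and matplotlib 3.10.9.

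Alternatives were normexp (offset 50) with loess and with Aquantile, the ratio of processed intensities, the value table, a dim-probe filter that kept 26724 probes detected above background on every array by 1 channel or both, keeping marked spots, the methods' t-test, the 8 channels unpaired, robust estimation with an intensity trend, averaging a gene's probes and leaving out each replicate. Repair of 20 local backgrounds before normexp, for spots more than 20 units below them, was chosen after seeing the data.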

Additional observations from a re-analysis of the deposited data

How the results depend on the processing

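The mean log2 ratio of DPY30 lay between -1.77 and -1.60 with a replicate left out and was -1.58 with normexp and loess, -1.62 with the repaired background and -1.69 as the mean of its probes. The other alternatives leave this mean as it is, and Aquantile leaves the ratios of normexp and loess, so they do not test its stability. No partner was called lower under any alternative. Partners called higher numbered 2 with the dim-probe filter (RBBP5, KDM1A), 2 with the ratio of processed intensities (RBBP5, KDM1A), 2 with the repaired background (KDM5B, KDM1A), 1 with the mean of all probes (KDM1A) and between 0 and 1 with a replicate left out (RBBP5 without replicate 3). The dim-probe filter tests fewer probes, and for the other settings the cause was not tested. ASH2L passed under no alternative.

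Across all probes, 8996 were called (4155 higher), against 4435 with the methods' t-test, 21399 (13912 higher) with the ratio of processed intensities, 11276 of 26724 (4928 higher) with the dim-probe filter, 13117 (6412 higher) with the repaired background, and between 1239 and 5735 with a replicate left out. Of the 59 pathway genes, 12 were called, against 5 with the methods' t-test, 21 with the repaired background and between 0 and 7 with a replicate left out. Without the replicate block, 16358 probes (11117 higher), 1 partner (KDM1A, adjusted p = 0.0226) and 10 pathway genes were called. Over the 239 values of single genes under alternatives, 166 kept direction and side of the threshold, 64 kept direction and lost the call, 9 gained a call and none changed sign. The probes of RBBP5, KDM5C and KDM7A were read at low intensities, and the part of background in how their values moved between settings was not tested. With normexp and loess KDM1A and SETDB1 also moved towards 0, to 0.22 and -0.38.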
